A study of Homo sapiens with 8 samples.

Results

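The 10 enzymes of serine synthesis and of the folate-bound transfer of single carbon units were examined in the human hepatocellular carcinoma line HepG2. They were PHGDH, PSAT1 and PSPH of serine synthesis, SHMT2, MTHFD2, MTHFD1L and ALDH1L2 of the mitochondrial folate arm, and SHMT1, MTHFD1 and ALDH1L1 of the cytosolic folate arm. The genes were taken by symbol, and each of the 10 matched 1 of the 58735 genes in the deposited table. Poly(A) RNA had been sequenced from 4 libraries of a HepG2 line made with a DNMT3A-overexpressing lentivirus (genotype label DNMT3A overexpression) and from 4 libraries of cells that received control lentivirus (genotype label WT). DNMT3A is a methyltransferase that sets new methyl groups on cytosine. The library names of both groups carry pLV_EGFP. The sources used here do not say whether the infected cells were a pool or a clone, or which promoter drove the transgene. The study asked how the transcriptome of these cells differs when DNMT3A is overexpressed.

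Serine is made from a glycolytic intermediate: PHGDH oxidises phosphoglycerate, PSAT1 adds an amino group taken from glutamate, and PSPH removes the phosphate. The serine hydroxymethyltransferases SHMT1 and SHMT2 then pass a carbon from serine to tetrahydrofolate and release glycine. In the mitochondria MTHFD2 oxidises the folate-bound carbon and MTHFD1L releases it as formate, while in the cytosol the trifunctional enzyme MTHFD1 takes formate back up for purine, thymidylate and methyl group synthesis. ALDH1L1 in the cytosol and ALDH1L2 in the mitochondria burn the formyl group to carbon dioxide. ALDH1L1 is known as an abundant liver enzyme, and several of the other genes are known targets of the transcription factor ATF4.

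Values are FPKM, that is, fragments relative to gene length and sequencing depth. The libraries held 15911019 to 17677093 reads, recovered from the FPKM steps, and no 2 of them agreed within sampling noise. DNMT3A itself (ENSG00000119772) was at 9.75, 10.2, 8.51 and 7.26 FPKM in DNMT3A libraries 1 to 4, against 3.62, 3.89, 3.45 and 3.64 FPKM in control libraries 1 to 4. Every DNMT3A library was above every control library (log2 fold change 1.09; two-sided exact permutation p = 0.0286, which is the lowest possible with 70 assignments). The values do not separate transcripts of the transgene from those of the endogenous gene. Hepatocyte markers were abundant, with ALB at 6252 ± 913 FPKM in DNMT3A libraries and 6188 ± 212 FPKM in control libraries (SD, n = 4 each). Of the 8 listed, TTR and FGB rose and 0 fell (limma, 0 also at an unadjusted p under 0.05). Over all genes tested, limma called 9.93% higher and 10.6% lower. The 5 fibroblast and stellate markers summed to 0.509 to 0.754 FPKM in DNMT3A libraries and 0.387 to 0.674 FPKM in control libraries. The 4 endothelial markers summed to 0.565 to 0.679 FPKM in DNMT3A libraries and 0.435 to 0.547 FPKM in control libraries, with KDR at 0 in all libraries. The 4 leukocyte markers summed to 0.638 to 0.695 FPKM in DNMT3A libraries and 1.11 to 1.60 FPKM in control libraries; PTPRC and CD3E were at 0 throughout and CD14 averaged 0.652 FPKM in DNMT3A libraries and 1.34 FPKM in control libraries. The 4 biliary markers summed to 197 to 219 FPKM in DNMT3A libraries and 209 to 233 FPKM in control libraries; KRT7 was near 0, SOX9 rose (log2 0.32), EPCAM fell (log2 -0.40) and KRT19 did not pass the test. The part of these markers in the results that follow was not tested.

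The promoter windows of 7 of the 10 genes were matched by symbol in RefSeq (GRCh38.p14), each running from 250 bases before to 50 bases after a start; PSPH, SHMT2 and ALDH1L2 were not matched. Windows are shown for PSAT1, MTHFD2, MTHFD1L and ALDH1L1, which were among the genes called lower, and for MTHFD1, which was not called; PHGDH and SHMT1 were also called lower. The windows to show were chosen after the values were seen. Capitals mark matches on either strand to TGATGNAA (bound by ATF4 with C/EBP partners), TGACNNNGC (the antioxidant response element) and CACGTG (the E-box of MYC and MAX). The matches shown do not overlap one another.
PSAT1, chr9:78296875-78297174, plus strand: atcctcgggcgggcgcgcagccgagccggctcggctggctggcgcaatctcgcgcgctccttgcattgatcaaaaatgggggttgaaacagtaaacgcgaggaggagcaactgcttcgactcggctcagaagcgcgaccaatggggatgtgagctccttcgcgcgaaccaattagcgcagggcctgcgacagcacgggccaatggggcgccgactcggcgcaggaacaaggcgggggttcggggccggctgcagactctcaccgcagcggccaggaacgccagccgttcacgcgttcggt
MTHFD2, chr2:74198365-74198664, plus strand: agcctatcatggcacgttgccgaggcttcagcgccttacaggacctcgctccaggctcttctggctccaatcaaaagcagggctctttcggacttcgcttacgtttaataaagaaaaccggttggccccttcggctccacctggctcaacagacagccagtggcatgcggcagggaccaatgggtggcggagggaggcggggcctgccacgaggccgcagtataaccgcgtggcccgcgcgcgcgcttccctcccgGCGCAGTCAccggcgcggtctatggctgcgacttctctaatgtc
MTHFD1L, chr6:150866236-150866535, plus strand: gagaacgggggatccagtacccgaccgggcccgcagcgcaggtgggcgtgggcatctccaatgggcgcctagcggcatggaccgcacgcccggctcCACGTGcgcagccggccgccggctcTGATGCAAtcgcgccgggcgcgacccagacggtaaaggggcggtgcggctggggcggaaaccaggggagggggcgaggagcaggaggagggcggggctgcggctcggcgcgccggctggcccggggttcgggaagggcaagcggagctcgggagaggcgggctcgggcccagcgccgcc
ALDH1L1, first of its windows, chr3:126180537-126180836, minus strand: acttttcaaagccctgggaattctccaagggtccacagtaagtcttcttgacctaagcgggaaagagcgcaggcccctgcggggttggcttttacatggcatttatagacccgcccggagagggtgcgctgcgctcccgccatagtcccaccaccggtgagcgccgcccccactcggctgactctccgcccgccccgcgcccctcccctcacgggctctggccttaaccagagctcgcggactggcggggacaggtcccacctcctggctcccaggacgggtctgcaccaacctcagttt
MTHFD1, chr14:64388103-64388402, plus strand: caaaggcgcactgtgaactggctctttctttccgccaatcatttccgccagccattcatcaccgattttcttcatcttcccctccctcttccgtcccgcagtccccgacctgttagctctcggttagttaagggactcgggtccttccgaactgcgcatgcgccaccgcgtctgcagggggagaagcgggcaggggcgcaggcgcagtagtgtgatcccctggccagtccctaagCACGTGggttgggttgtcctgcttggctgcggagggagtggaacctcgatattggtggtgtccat

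Counted from the start, with the base before it as -1 and the leftmost letter of the match giving the position, TGATGNAA was found in the printed MTHFD1L window at -129 and CACGTG at -154. MTHFD1L has 4 listed windows, of which 3 overlap and share both matches. TGACNNNGC was found in MTHFD2 at position 7, read on the opposite strand, and CACGTG in MTHFD1 at -15. The PSAT1, PHGDH, SHMT1 and ALDH1L1 windows held none of these letters. Of all 35116 promoter windows of 300 bases, 3.62% held TGATGNAA, 13.3% held TGACNNNGC and 7.26% held CACGTG. CG pairs, the sites at which DNMT3A methylates cytosine, numbered 37 in the PSAT1 window, 27 in MTHFD2, 40 in the printed MTHFD1L window, 20 in MTHFD1, 23 in SHMT1, 15 in PHGDH, and 21 and 10 in the 2 windows of ALDH1L1. The MTHFD1L windows not printed held 41, 40 and 5. The median over all windows was 14. A match is a description of the letters only, and methylation was not measured in these libraries.

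Of the 9 genes that passed the filter of a mean FPKM of at least 1, 6 fell in DNMT3A libraries, 0 rose and 3 did not pass the test (limma on log2(FPKM + 1), Benjamini-Hochberg adjusted p under 0.05 over all 11620 genes tested). At an unadjusted p under 0.05 and by voom the count that rose was also 0. Over all genes tested, 10.6% were called lower and 9.93% higher by limma. By voom, 1188 of the 11620 genes were called lower and 1517 higher. The median log2 fold change, DNMT3A minus control, was -0.30 over the 9 genes and -0.01 over all genes tested. All of the 9 had a log2 fold change below 0, against 52.4% of all genes, although that of MTHFD1 was above 0 with quantile normalization, with voom and without DNMT3A library 4 or control library 4. Further, for 6 of the 9 all DNMT3A values lay below all control values, against 13.0% of all genes. The 10 enzymes were chosen with earlier results of these data known, so these counts describe them and test nothing further. Over all genes 2389 were called, 1540 without control library 2 and 1491 without control library 3. In bulk RNA, fewer cells that express a gene and less of its RNA per cell cannot be told apart.

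**Figure D1:**
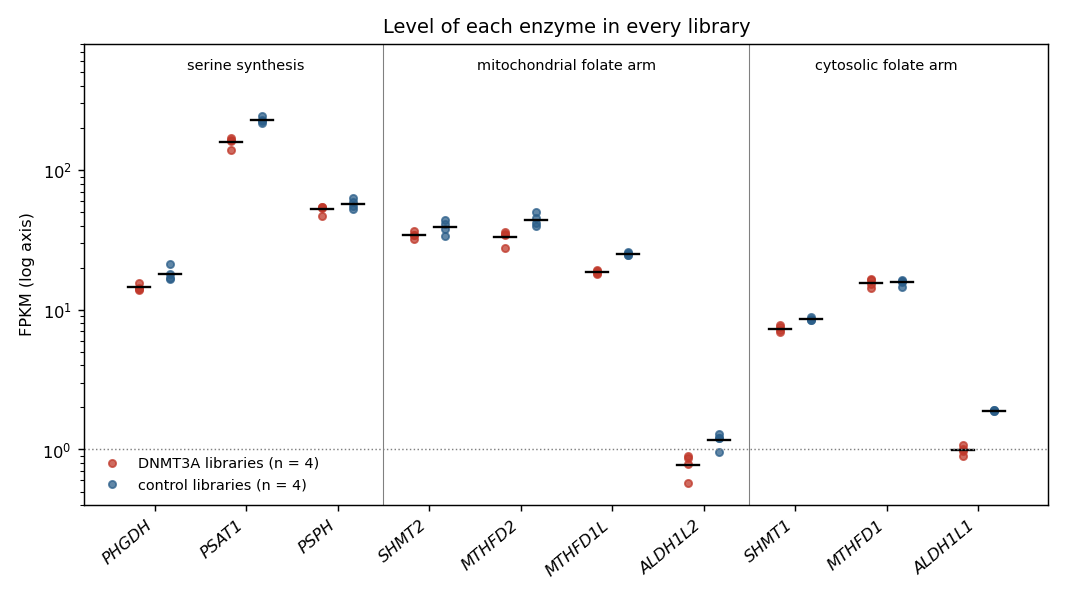
FPKM of the 10 enzymes on a log axis in the 4 DNMT3A libraries (red, left) and 4 control libraries (blue, right); black bars are group means and the dotted line is the filter at a mean FPKM of 1. PSAT1 is the highest in both groups, near 158 FPKM in DNMT3A libraries and 228 FPKM in control libraries, and ALDH1L1 and ALDH1L2 lie near the filter.

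The levels differed widely between enzymes. On the FPKM scale, which divides by the length of all annotated exons of a gene merged, PSAT1 ranked 124th of the 58735 genes by mean and was the highest of the 10 in both groups. ALDH1L1 ranked 10637th and ALDH1L2 11690th. In DNMT3A libraries the order of mean levels ran from PSAT1 over PSPH, SHMT2, MTHFD2, MTHFD1L, MTHFD1, PHGDH and SHMT1 to ALDH1L1 and ALDH1L2. Neighbours in that order did not overlap between libraries except SHMT2 with MTHFD2 and MTHFD1 with PHGDH. In control libraries MTHFD2 stood above SHMT2 and PHGDH above MTHFD1, and of the neighbours only MTHFD2 and SHMT2 overlapped. The merged exons of PHGDH span 9217 bases and those of PSAT1 2188, so a gene with long rarely used exons has an understated FPKM. Each value rests on 89 to 8756 recovered reads, the fewest for ALDH1L2.

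In serine synthesis, PSAT1 and PHGDH fell and PSPH did not pass the test. PSAT1 (ENSG00000135069, hg38 chromosome 9, 78297143 to 78330093, plus strand) was at 161, 139, 164 and 170 FPKM in DNMT3A libraries 1 to 4, against 246, 216, 224 and 227 FPKM in control libraries 1 to 4. The groups did not overlap, and DNMT3A library 2 was the lowest of all. The mean of 158 ± 13.6 FPKM in DNMT3A libraries was 0.694 times the 228 ± 12.6 FPKM of control libraries (SD, n = 4 each), with a log2 fold change of -0.53 ± 0.07 (SE; limma adjusted p = 0.0017).

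PHGDH, the entry enzyme (ENSG00000092621, chromosome 1, 119648411 to 119744226, plus strand), was at 13.9, 14.2, 15.6 and 14.4 FPKM in DNMT3A libraries, against 21.3, 16.6, 16.8 and 17.9 FPKM in control libraries. Every DNMT3A library was below every control library, and control library 1 was the highest. The ratio of means was 0.800 and the log2 fold change -0.30 ± 0.08 (SE; limma adjusted p = 0.0269). The call was lost without DNMT3A library 1 or control library 4 (limma adjusted p = 0.0701 and 0.0528) and without the FPKM filter (0.0764). It was also lost with the replicate number fitted as a block (limma adjusted p = 0.056).

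PSPH, which completes the route (ENSG00000146733, chromosome 7, 56011051 to 56051604, minus strand), was at 54.0, 46.6, 54.3 and 54.1 FPKM in DNMT3A libraries, against 63.2, 52.8, 55.4 and 59.1 FPKM in control libraries. The groups overlapped, and DNMT3A library 2 stood below the other 7 libraries. Its log2 fold change was -0.14 ± 0.07 (SE; limma adjusted p = 0.21). Summed over the 3 enzymes, serine synthesis came to 225 ± 17.5 FPKM in DNMT3A libraries and 304 ± 19.1 FPKM in control libraries (SD, n = 4 each), most of it PSAT1.

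In the mitochondrial folate arm MTHFD2 and MTHFD1L fell and SHMT2 did not pass the test. MTHFD1L, the formate-releasing enzyme (ENSG00000120254, chromosome 6, 150865549 to 151101887, plus strand), was at 19.4, 18.3, 19.1 and 18.1 FPKM in DNMT3A libraries, against 26.0, 24.7, 25.3 and 24.6 FPKM in control libraries. Its libraries were tightly grouped and did not overlap, at 18.7 ± 0.618 FPKM in DNMT3A libraries and 25.1 ± 0.639 FPKM in control libraries (SD, n = 4 each). The log2 fold change was -0.41 ± 0.05 (SE; limma adjusted p = 0.000747), the lowest adjusted p among the 9 genes tested.

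MTHFD2, the dehydrogenase and cyclohydrolase (ENSG00000065911, chromosome 2, 74198562 to 74217565, plus strand), was at 34.9, 27.7, 35.9 and 34.1 FPKM in DNMT3A libraries, against 50.1, 42.1, 39.5 and 45.3 FPKM in control libraries. The groups did not overlap but spread more than those of MTHFD1L, with DNMT3A library 2 lowest and control library 1 highest. The log2 fold change was -0.41 ± 0.10 (SE; limma adjusted p = 0.0165). Its paralog MTHFD2L, also mitochondrial, was much lower, at 1.23 ± 0.211 FPKM in DNMT3A libraries and 1.51 ± 0.223 FPKM in control libraries, with a log2 fold change of -0.17 (limma adjusted p = 0.24). The call of MTHFD2 was lost without the FPKM filter (limma adjusted p = 0.0609).

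SHMT2, which feeds the arm with serine-derived carbon (ENSG00000182199, chromosome 12, 57229327 to 57234935, plus strand), was at 34.2, 36.5, 34.5 and 32.1 FPKM in DNMT3A libraries, against 44.0, 33.5, 38.0 and 41.1 FPKM in control libraries. The groups overlapped through control library 2, which was below 3 of the DNMT3A libraries. Its log2 fold change was -0.18 ± 0.08 (SE; limma adjusted p = 0.154).

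ALDH1L2 (ENSG00000136010, chromosome 12, 105019784 to 105084577, minus strand) was at 0.896, 0.571, 0.784 and 0.862 FPKM in DNMT3A libraries, against 1.22, 0.963, 1.21 and 1.30 FPKM in control libraries. The groups did not overlap, and the ratio of means was 0.664. Its mean of 0.975 FPKM over all libraries was just under the filter, so it was not among the genes tested. Without a filter its log2 fold change was -0.29 ± 0.10 (SE; limma adjusted p = 0.145), and with a filter at 0.5 FPKM, chosen after the data were seen, the adjusted p was 0.06.

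**Figure D2:**
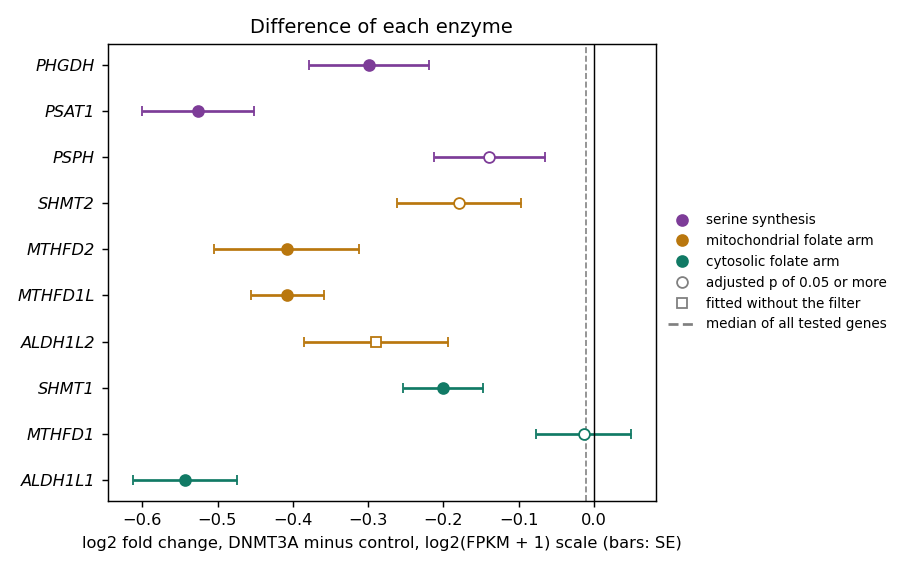
Change of each enzyme in DNMT3A over control libraries, in log2 of (FPKM + 1), with SE bars, coloured by arm (4 libraries per group); filled points passed the adjusted threshold of 0.05, the open square is ALDH1L2 fitted without the filter and the dashed line is the median of all genes tested, -0.01. ALDH1L1 (-0.54) and PSAT1 (-0.53) lie farthest left, and MTHFD1 (-0.01) lies on the median.

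In the cytosolic folate arm ALDH1L1 and SHMT1 fell and MTHFD1 did not pass the test. ALDH1L1 (ENSG00000144908, chromosome 3, 126103562 to 126197994, minus strand) was at 1.07, 1.01, 0.902 and 0.983 FPKM in DNMT3A libraries, against 1.91, 1.92, 1.89 and 1.88 FPKM in control libraries. The control libraries were almost equal and every DNMT3A library lay well below them, at 0.522 times their mean. The log2 fold change was -0.54 ± 0.07 (SE; limma adjusted p = 0.00105). Because the added 1 FPKM damps changes of low genes, voom on the recovered reads gave a larger log2 value of -0.92 ± 0.09 (SE; adjusted p = 4.11e-06).

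SHMT1, the cytosolic hydroxymethyltransferase (ENSG00000176974, chromosome 17, 18327860 to 18363563, minus strand), was at 7.14, 7.81, 7.47 and 6.93 FPKM in DNMT3A libraries, against 8.51, 8.39, 8.55 and 8.86 FPKM in control libraries. The groups did not overlap, and the ratio of means was 0.856. The log2 fold change was -0.20 ± 0.05 (SE; limma adjusted p = 0.0265). This call was close to the threshold: leaving out any library other than DNMT3A library 2 ended it (limma adjusted p = 0.0513 to 0.0684). Fitting the replicate number as a block also ended it (limma adjusted p = 0.0803). No strand-marking step appears in the protocol, and SHMT1 shares 196 of its 7281 exon bases with SMCR8 on the opposite strand, at 7.22 FPKM in DNMT3A libraries and 6.61 FPKM in control libraries.

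MTHFD1 (ENSG00000100714, chromosome 14, 64388031 to 64463457, plus strand) was at 16.6, 16.3, 15.2 and 14.3 FPKM in DNMT3A libraries, against 14.6, 15.9, 16.2 and 16.3 FPKM in control libraries. The groups covered nearly the same range. The mean was 15.6 ± 1.05 FPKM in DNMT3A libraries and 15.7 ± 0.799 FPKM in control libraries (SD, n = 4 each), with a log2 fold change of -0.01 ± 0.06 (SE; limma adjusted p = 0.9). Across all alternatives the value stayed between -0.05 and 0.03.

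Of 14 genes named as copies of these enzymes, none exceeded 3 recovered reads in any library. How reads that match a parent and a copy were counted was not stated, and their part in the values of the enzymes was not tested. No gene of the table on the same strand shared exon bases with any of the 10, except the microRNA MIR6778 within SHMT1, which was at 0. On the opposite strand SLC4A5 covered 27.2% of the exon bases of MTHFD2 and was at 0.0421 FPKM in DNMT3A libraries and 0.0417 FPKM in control libraries. The antisense RNA AL122035.2 covered 8.06% of those of MTHFD1, at 0.417 FPKM in DNMT3A libraries and 0.466 FPKM in control libraries, and C12orf45 covered 1.7% of those of ALDH1L2, at 0.572 FPKM in DNMT3A libraries and 0.447 FPKM in control libraries. Without strand, reads from such shared bases cannot be told apart.

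The comparison of the arms was made enzyme by enzyme, as the log2 ratio of (FPKM + 1) of the mitochondrial to the cytosolic form in each library. For MTHFD2 over MTHFD1 the ratio was 1.03, 0.73, 1.18 and 1.20 in DNMT3A libraries 1 to 4, against 1.71, 1.35, 1.24 and 1.42 in control libraries 1 to 4. The groups did not overlap, and the difference was -0.39 (two-sided exact permutation p = 0.0286 over 70 assignments, adjusted p = 0.0571 over the 4 ratios). For MTHFD1L over MTHFD1 the ratio was 0.21, 0.16, 0.31 and 0.32 in DNMT3A libraries, against 0.79, 0.60, 0.62 and 0.56 in control libraries. These groups did not overlap either, with a difference of -0.39 (exact permutation p = 0.0286, adjusted p = 0.0571). Both ratios share MTHFD1 and so are not independent. As plain FPKM ratios, MTHFD1L was 1.13 to 1.27 times MTHFD1 in DNMT3A libraries and 1.51 to 1.78 times in control libraries.

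The other pairs of forms gave another picture. SHMT2 over SHMT1 was 2.11, 2.09, 2.07 and 2.06 in DNMT3A libraries, against 2.24, 1.88, 2.03 and 2.10 in control libraries, so the DNMT3A libraries lay inside the control range. The difference was 0.02 (exact permutation p = 0.686, adjusted p = 0.686), and it was -0.04 without control library 2. ALDH1L2 over ALDH1L1 was -0.13, -0.36, -0.09 and -0.09 in DNMT3A libraries, against -0.39, -0.57, -0.39 and -0.33 in control libraries, where DNMT3A library 2 lay inside the control range. The difference was 0.25, towards the mitochondrial form (exact permutation p = 0.0571, adjusted p = 0.0762). Both enzymes lay near 1 FPKM, where the added 1 FPKM damps the ratio. As plain FPKM ratios, ALDH1L2 was 0.565 to 0.877 times ALDH1L1 in DNMT3A libraries and 0.501 to 0.690 times in control libraries. None of the 4 ratios passed 0.05 after adjustment. The ratios of MTHFD2 and MTHFD1L were at the lowest p that 70 assignments allow, and with 2 of 4 ratios at that p the adjusted value could not go below 0.0571, so missing the threshold does not show that the compartments moved alike. Each arm held 2 genes that fell and 1 tested gene that did not pass.

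**Figure D3:**
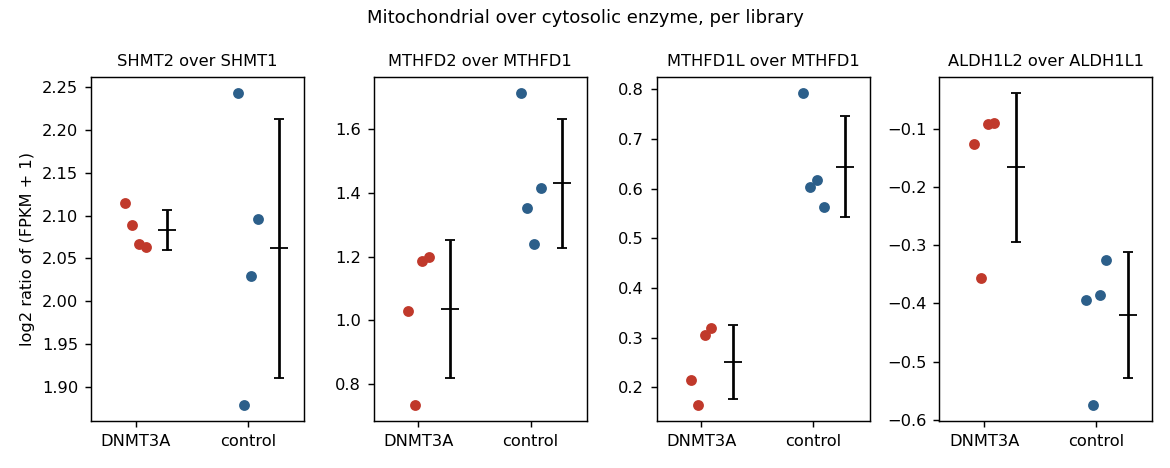
Log2 ratio of (FPKM + 1) of each mitochondrial enzyme to its cytosolic counterpart in 4 DNMT3A and 4 control libraries, with group mean and SD at the side of the points; each panel has its own vertical axis, which does not start at 0. The groups are apart for MTHFD2 and MTHFD1L over MTHFD1 and overlap for SHMT2 over SHMT1 and ALDH1L2 over ALDH1L1.

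Summed over its 4 enzymes the mitochondrial arm was at 89.4, 83.0, 90.2 and 85.1 FPKM in DNMT3A libraries, against 121, 101, 104 and 112 FPKM in control libraries. The 3 cytosolic enzymes summed to 24.8, 25.1, 23.6 and 22.2 FPKM in DNMT3A libraries, against 25.0, 26.2, 26.6 and 27.1 FPKM in control libraries. The mitochondrial sums did not overlap between groups and the cytosolic sums did, through DNMT3A library 2 and control library 1. Most of the cytosolic sum was MTHFD1, at 15.6 FPKM in DNMT3A libraries and 15.7 FPKM in control libraries. ALDH1L1 and SHMT1 each did not overlap between groups. The mitochondrial enzymes made up 78.4% ± 1.17 of the folate arms' summed FPKM in DNMT3A libraries and 80.6% ± 1.60 in control libraries (SD, n = 4 each). These sums are descriptions with no test. FPKM divides by merged exon length, which was 4838 to 5021 bases for SHMT2, MTHFD2 and MTHFD1L and 8507 for ALDH1L2. It was 7281 to 13712 bases for the cytosolic enzymes, so the share and the plain FPKM ratios depend on annotated lengths.

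Within groups the enzymes also varied by library. Control library 1 had the highest of the 4 control values for 6 of the 10 genes, PHGDH, PSAT1, PSPH, SHMT2, MTHFD2 and MTHFD1L, and the lowest for MTHFD1. Control library 2 had the lowest value for 6 genes. DNMT3A library 2 was lowest of its group for PSAT1, PSPH, MTHFD2 and ALDH1L2 and highest for SHMT1 and SHMT2. How often each library was highest or lowest over all genes was not counted, so these counts have no background. With 1 library left out, 4 to 6 of the enzymes were called lower, beside 723 to 1263 of all genes tested. The count of enzymes was 6 without DNMT3A library 2 and 5 without control library 1.

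**Figure D4:**
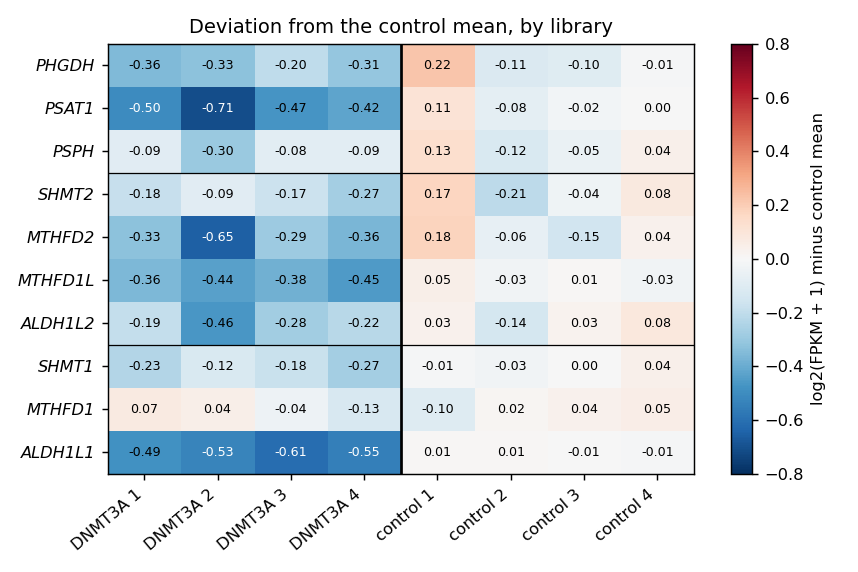
Deviation of each enzyme (rows) in each library (columns) from its control mean, on the log2(FPKM + 1) scale; blue is below and red above the control mean. Every DNMT3A column is below 0 for all rows but MTHFD1, with the strongest values for PSAT1 (-0.71) and MTHFD2 (-0.65) in DNMT3A library 2.

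By the root mean square difference between profiles centred on their mean over the 8 libraries, the protein-coding genes most like PSAT1 among 10029 were IGFALS (0.0525 on the log2 scale), PYROXD1 (0.0583) and SSC4D (0.061). PSAT1's own spread by the same measure was 0.279. Those most like MTHFD2 were CLGN (0.0624), CSTA (0.0673) and HYAL3 (0.0764), and those most like MTHFD1 were PRDM4 (0.0278), NRF1 (0.0318) and PSME3 (0.032). The measure rests on 8 libraries in 2 groups and says little beyond a similar difference between them.

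The genes of the surrounding pathways are described list by list, beside the 20.6% of all tested genes that were called in either direction by limma. With voom, 1188 of the 11620 genes tested were lower and 1517 higher. The share of all genes at an unadjusted p under 0.05 is not given here, so such list counts have no background. Log2 values are of (FPKM + 1), which damps changes of genes near 1 FPKM beside those of abundant genes. Among serine and glycine carriers and breakdown enzymes 6 genes were tested, of which 4 fell and 1 rose; their median log2 fold change was -0.34. SLC38A2, a sodium-coupled carrier of small neutral amino acids, rose: it was at 172, 136, 163 and 177 FPKM in DNMT3A libraries 1 to 4, against 70.6, 76.0, 73.7 and 78.1 FPKM in control libraries. Every DNMT3A library was far above every control library, with a log2 fold change of 1.10 ± 0.08 (SE; limma adjusted p = 5.63e-05). The glycine carrier SLC6A9 fell (log2 -0.45), as did SLC38A1 (log2 -0.43), the neutral amino acid exchanger SLC1A5 (log2 -0.37) and the serine carrier SLC1A4 (log2 -0.31). SRR, serine racemase, had a log2 of -0.02. SLC6A9 lost its call without DNMT3A library 2, 3 or 4 or control library 1, 3 or 4 (limma adjusted p = 0.0573 to 0.0929), and without the FPKM filter (0.124).

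In the methionine cycle and transsulfuration 12 genes were tested, of which 4 fell and 0 rose (limma; 4 and 0 by voom, 6 and 0 at an unadjusted p under 0.05), and their median log2 fold change was -0.12. GNMT, which methylates glycine, was at 1.76 ± 0.276 FPKM in DNMT3A libraries and 3.84 ± 0.487 FPKM in control libraries (SD, n = 4 each; log2 -0.81). CTH, the last enzyme of cysteine synthesis, had a log2 fold change of -0.74, the betaine-related methyltransferase BHMT2 one of -0.64 and MTRR, which reactivates methionine synthase, one of -0.20. AHCY, which clears S-adenosylhomocysteine, did not pass the test (log2 -0.09). PEMT, a methyltransferase of phosphatidylcholine synthesis, was the 1 of 5 tested genes called in the choline and sarcosine list (log2 -0.36), and CHDH did not pass (log2 -0.18). MTRR lost its call without DNMT3A library 1 or 3 or any 1 control library (limma adjusted p = 0.0525 to 0.0743), and PEMT without control library 3 (0.0525) or without the FPKM filter (0.0563).

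Folate transport, retention and other folate steps had 11 tested genes, of which 3 fell and 0 rose (limma; 1 and 0 by voom, 6 and 0 at an unadjusted p under 0.05), and a median log2 fold change of -0.17. The 3 that fell were DHFR2, a reductase paralog (log2 -0.28), MTFMT, which formylates the mitochondrial initiator transfer RNA (log2 -0.21), and FPGS, which adds glutamates that hold folate in the cell (log2 -0.17). GGH, which removes them, did not pass the test (log2 -0.22). This count was 0 without DNMT3A library 3 or control library 1, 2 or 3, and 1 without DNMT3A library 1 or control library 4. Of 3 tested genes of glycine cleavage, GLDC among them at 29.1 ± 2.10 FPKM in DNMT3A libraries and 29.7 ± 0.694 FPKM in control libraries, 0 were called by limma or voom and 1 was lower at an unadjusted p under 0.05. Of the 3 genes of thymidylate and purine synthesis, with ATIC the most abundant (log2 -0.05), 0 were called by limma or voom and 0 had an unadjusted p under 0.05. DHFR2 lost its call without DNMT3A library 1 or 3 or any 1 control library (limma adjusted p = 0.0534 to 0.0854), MTFMT without DNMT3A library 1 or 3 or control library 1, 2 or 3 (0.0542 to 0.0833) and FPGS without any 1 library (0.0518 to 0.0966); GGH gained one without DNMT3A library 4 (0.0307). Without the FPKM filter DHFR2 (limma adjusted p = 0.0859) and MTFMT (0.0525) lost their calls, as did FPGS (0.106) and MTFMT (0.0873) with voom.

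ATF4, MYC and NFE2L2, known regulators of these enzymes, did not pass the test (limma; 0 of them by voom, and 0 at an unadjusted p under 0.05). ATF4 was at 116 ± 7.56 FPKM in DNMT3A libraries and 116 ± 7.90 FPKM in control libraries (SD, n = 4 each). These are RNA levels, and ATF4 protein and activity were not measured in these libraries. MYC had a log2 fold change of -0.14 and NFE2L2 one of 0.07. The ATF4 programme had 17 tested genes, of which 8 fell, 2 rose and 7 did not pass (limma; 8 fell and 3 rose by voom, 9 and 3 at an unadjusted p under 0.05), and a median log2 fold change of -0.18. SLC38A2, which rose, was counted among the carriers and is not in this list. SLC7A11, the cystine carrier, had a log2 fold change of -1.04, NUPR1 of -0.58 and SLC3A2 of -0.58, while SESN2 (log2 0.47) and ATF3 (log2 0.34) rose. NUPR1 averaged 1.28 FPKM in DNMT3A libraries and 2.41 FPKM in control libraries, so the added 1 FPKM damps its value. SLC3A2 averaged 42.7 FPKM in DNMT3A libraries and 64.2 FPKM in control libraries. DDIT4, named after its value was seen, had the highest log2 fold change of the list, 0.76, and did not pass (limma adjusted p = 0.0754); it did with voom (0.0161), with array weights (0.0279) and without DNMT3A library 4 or control library 2 (0.0157 to 0.0435). The call of NUPR1 was lost without control library 2 (limma adjusted p = 0.0541) or without the FPKM filter (0.0751), and that of ATF3 without DNMT3A library 1 or 3 (0.0506 and 0.0504) or without the filter (0.0622).

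**Figure D5:**
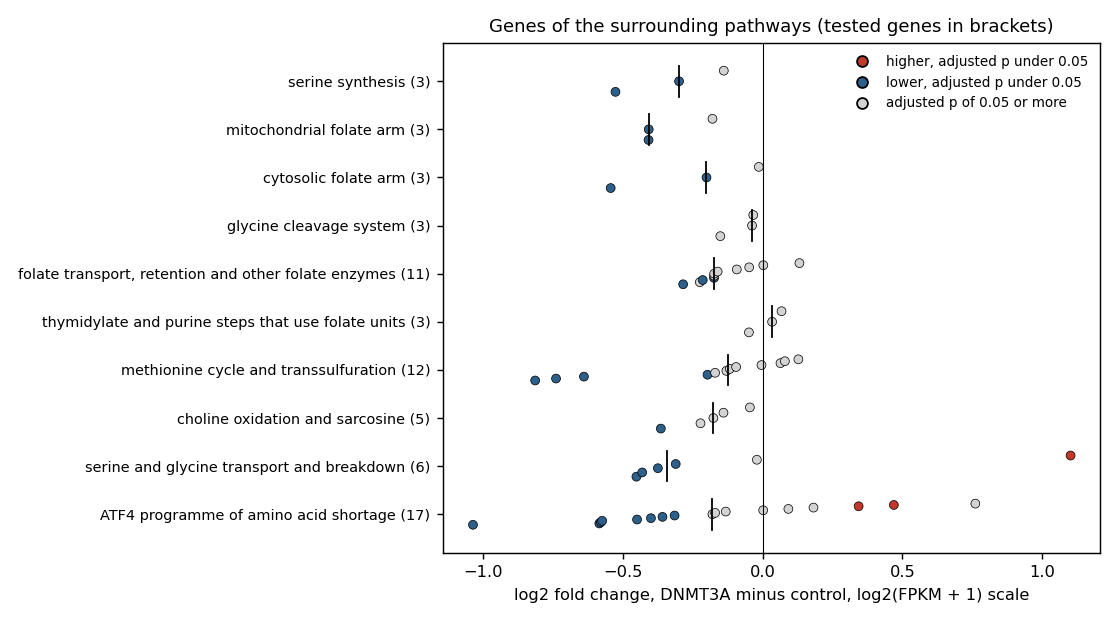
Change in DNMT3A over control libraries, in log2 of (FPKM + 1), of tested genes in each list (1 point per gene, 4 libraries per group; black ticks are list medians). Blue points were called lower, red higher and grey not called, and the lone red point at 1.10 among the carriers is SLC38A2.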

How the data were processed

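Reads were aligned to hg38 with HISAT2 2.0.5 (submitters' processing notes); which program counted them is not given in the sources used here. Per the file headers, the authors deposited FPKM in 1 column per library. Coordinates of all 58735 genes, and their lengths, were identical to GENCODE release 29 genes and merged exons. FPKM multiplied by length gave whole reads for 100% of values (tolerance 0.01 of a read). FPKM depends on a library total, so a change in abundant genes moves all others.

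Groups and replicate numbers came from titles. The 11620 genes whose mean FPKM reached 1 were compared on log2(FPKM + 1) with limma 3.58.1 in R 4.3.3 (intensity trend, Benjamini-Hochberg adjustment, threshold 0.05), and single ratios with a two-sided exact permutation test. The code was tested on simulated data. Named genes were the 10 enzymes and DNMT3A, and per list the called genes with the largest change and the uncalled gene with the highest mean; MTHFD2L, MYC, NFE2L2 and the genes under other observations were named after their values were seen. Members and lists were chosen with earlier results of these data known. Alternatives were a pseudocount of 0.1, no filter, a filter at 0.5 (chosen after the data were seen), voom on recovered reads, a fit without the trend, array weights, quantile normalization, median-ratio scaling, the replicate number as a block and leaving out each library. Separate cultures are not stated in the labels, so p-values measure spread between libraries that may be technical. Promoter windows came from RefSeq. Some items are not reported here.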

Additional observations from a re-analysis of the deposited data

Results flagged for a closer look

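PSPH in DNMT3A library 2, at 46.6 FPKM, stood apart from the other 3 DNMT3A libraries, which were at 54.0 to 54.3 FPKM. The log2 ratio of ALDH1L2 over ALDH1L1 in the same library was -0.356, apart from the other DNMT3A libraries at -0.127 to -0.0905. These were the 2 flags among 36 groups of 4 values checked with Dixon's ratio, where chance flags about 1 in 20.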

How the results depend on the processing

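The count of the 10 enzymes called lower was 6, and it was 4 to 6 under every alternative and with each library left out; the count called higher was 0 under each. PSAT1, MTHFD1L and ALDH1L1 kept their calls under all alternatives run. Over all genes, 2389 were called, 3756 with array weights and 1491 to 2454 with 1 library left out; the cause was not tested. MTHFD1, which was never called, changed sign with quantile normalization (0.00539), voom (0.00743), without DNMT3A library 4 (0.0251) and without control library 4 (0.0034), and ranged from -0.0481 to 0.0251 with 1 library left out. The SHMT2 over SHMT1 difference ranged from -0.0398 to 0.0821 with 1 library left out, and the adjusted p of the other ratios from 0.0571 to 0.114. For same-numbered libraries the deviations had r = 0.159, -0.0816, -0.0248 and 0.0978 over 11620 genes. Libraries with unlike numbers had r from -0.322 to 0.202. The labels do not say whether the numbers pair the libraries, and these values cannot decide it. With the replicate number as a block 4 enzymes were called lower; PHGDH (limma adjusted p = 0.056) and SHMT1 (0.0803) were not, nor were MTRR, DHFR2, MTFMT and FPGS (0.0679 to 0.109), while DDIT4 was called. With that block the 4 ratios had adjusted p of 0.167 to 0.75 by an exact sign-flip permutation test, which cannot go below p = 0.125. The folate transport list had 3 genes called lower, 0 with the block and 1 without a filter or with voom; without a filter the choline list had 0, and the ATF4 programme had 1 called higher. Precision is set by 4 libraries per group and by 89 to 194 reads for ALDH1L2.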

Other observations

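Several genes next to these enzymes were too low to be tested. SLC25A32, the mitochondrial folate carrier, was at 0.186 ± 0.0748 FPKM in DNMT3A libraries and 0.228 ± 0.0776 FPKM in control libraries (SD, n = 4 each), and ASNS, asparagine synthetase, at 0.413 ± 0.0598 FPKM in DNMT3A libraries and 0.284 ± 0.116 FPKM in control libraries. In the annotation 69.7% of the exon bases of SLC25A32 and 44.6% of those of ASNS also belong to another gene on the same strand, and the sources used here do not say how the authors' counting treated such reads. The part of this overlap in the low values was not tested.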
